A study of Mus musculus with 4 samples.

Results

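Srrm2, Srrm1, Son, Pnn, Acin1 and Rnps1 encode arginine- and serine-rich proteins of nuclear speckles and their partners at splice junctions. They were taken by gene symbol as 6 of the 32285 genes in a single-cell count matrix of mouse embryonic stem cells (mESC), and all 6 passed the minimum of 200 counts. The labels list 4 samples in 2 groups, 2 of WT cells and 2 of Srrm2 hKO cells. WT cells are E14tg2a.4, a male mESC line, and Srrm2 hKO (heterozygous knockout) cells are a single gene-trap line, CG0630, made in the same parental line, with the trap cassette in 1 Srrm2 allele. Cultures of both genotypes were grown in serum-free ESGRO medium with LIF, for 24 h or 72 h according to labels that do not say which applied; the single-cell methods of the study give both lines 1 time, which is neither. Transcripts were counted near their 3′ ends as unique molecular identifiers (UMIs), each standing for 1 captured molecule, and the counts hold no label for the allele. Transcripts of the trapped allele that end in the cassette lack the 3′ end at which Srrm2 is counted; how many do was not measured here.

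Nuclear speckles are bodies between chromosomes in which splicing factors are stored and supplied to nearby active genes. SRRM2 (SRm300) and SON are the large disordered proteins that hold speckles together. SRRM1 (SRm160) is a splicing coactivator that works with SRRM2. RNPS1, ACIN1 and PNN attach to the exon junction complex, which is laid on messenger RNA at splice junctions: RNPS1 with ACIN1 and SAP18 forms the ASAP complex, and RNPS1 with PNN and SAP18 forms the PSAP complex. In mESC, splicing factors are highly expressed and splicing choices accompany the passage from the naive state, which resembles the early epiblast, to the formative state, in which cells become able to respond to lineage signals.

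In the gene annotation of the reference (GRCm38), Srrm2 (ENSMUSG00000039218) lay at chr17:23790532-23824741 on the plus strand, and Rnps1 lay on the same strand at chr17:24414565-24425901, 0.590 Mb beyond the end of Srrm2. Srrm1 lay at chr4:135320484-135353321 on the minus strand, Son at chr16:91647506-91679221 on the plus strand, Pnn at chr12:59066884-59073998 on the plus strand and Acin1 at chr14:54642161-54686931 on the minus strand. The longest coding sequence of Srrm2 was 8109 bp and that of Son 7431 bp, against 915 bp for Rnps1. The 3′ ends of Srrm2, Son and Acin1 overlapped genes on the opposite strand (Elob by the last bases of Srrm2, Donson and Gm17606), which sense-strand counting keeps apart.

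Promoter windows, from 250 bases before to 50 bases after a RefSeq start on GRCm38.p6, were matched for 5 of the 6 genes, and 3 are shown because the results below turn on Srrm2, Son and Pnn. Pnn is at chr12:59066669-59066968, Son at chr16:91647574-91647873 and Srrm2, for the first of its 2 listed starts, at chr17:23802937-23803236, all on the plus strand. Capitals mark the letters CCAAT or their complement ATTGG.
Pnn: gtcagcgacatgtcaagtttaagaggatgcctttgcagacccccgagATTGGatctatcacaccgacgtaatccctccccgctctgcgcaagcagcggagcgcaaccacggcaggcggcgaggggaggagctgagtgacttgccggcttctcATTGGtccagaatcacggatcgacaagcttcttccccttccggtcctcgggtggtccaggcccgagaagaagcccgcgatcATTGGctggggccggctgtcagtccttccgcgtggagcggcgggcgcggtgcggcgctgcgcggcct
Son: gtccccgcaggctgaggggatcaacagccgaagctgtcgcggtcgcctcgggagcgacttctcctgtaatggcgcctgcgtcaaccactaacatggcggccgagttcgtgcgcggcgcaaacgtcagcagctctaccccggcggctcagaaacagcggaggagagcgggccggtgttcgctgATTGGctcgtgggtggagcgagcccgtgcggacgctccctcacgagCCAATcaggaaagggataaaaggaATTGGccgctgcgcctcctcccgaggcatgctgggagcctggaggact
Srrm2: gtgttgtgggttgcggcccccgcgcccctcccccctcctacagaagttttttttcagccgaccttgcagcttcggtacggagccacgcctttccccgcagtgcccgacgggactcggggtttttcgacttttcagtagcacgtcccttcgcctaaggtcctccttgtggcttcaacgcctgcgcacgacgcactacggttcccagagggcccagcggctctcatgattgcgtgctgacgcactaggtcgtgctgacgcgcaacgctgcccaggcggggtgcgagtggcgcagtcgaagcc

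Pnn and Son each held 3 CCAAT matches on the 2 strands, as did or exceeded 3.56% of 27025 mouse promoter windows, while 37.9% held at least 1. Srrm1 held 1 CCAAT match and 3 GC boxes (GGGCGG). Pnn and Acin1 each held 1 ETS match (CCGGAAG), found in 9.12% of all windows. Srrm2 held none of the 7 letter strings searched. The E2F strings TTTCCCGC and TTTGGCGC, the cell cycle string TTTGAA and the TATA string TATAAA were in none of the 5 windows, and they were in 1.11%, 0.537%, 18.1% and 14.2% of all windows.

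The 4 libraries are known only by the number, 1 to 4, at the end of each cell barcode, and nothing in the sources used here ties a number to a labelled sample. No library is therefore called WT or Srrm2 hKO, the genotypes were not compared, and no p-value or SD over libraries is given. After the study's cell filter 31989 of 41142 barcodes were kept, 7464 to 8514 per library, with 166839268 to 200180473 UMIs. Median UMI counts per cell were 18378 to 21898, lowest in library 1, and median mitochondrial shares 3.51% to 5.404%, highest in library 1. Among kept cells, 105 barcode sequences occurred in 2 or more libraries. The pluripotency gene Pou5f1 stood at 663 to 847 UMIs per 1000000 UMIs of kept cells (CPM), and markers of primitive endoderm together at 1.36 to 4.75 CPM. The libraries differed in cell state: genes of the naive panel together took 1930, 1575, 1402 and 931 CPM, in order of library number, and those of the formative panel 180, 692, 314 and 1060 CPM. The keratin genes Krt8 and Krt18 together took 39.9, 27.5, 471 and 139 CPM.

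Srrm2, the targeted gene, was the member whose level differed most over all 4 libraries. Srrm2 stood at 387, 533, 238 and 356 CPM in libraries 1, 2, 3 and 4. The 95% counting intervals were within 4 CPM of each value and none overlapped. Library 2 was thus 2.24 times library 3 (95% interval 2.22 to 2.27, covering counting error only, as do all intervals here). In kept cells this was 12.5 Srrm2 UMIs per cell in library 2 and 5.19 in library 3.

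Son, the other speckle scaffold, followed a different order. It stood at 145, 243, 166 and 287 CPM in libraries 1 to 4, and library 4 was 1.99 times library 1 (1.95 to 2.02). Library 4 was the highest for Son and only the third for Srrm2. With TMM scaling, which sets the bulk of genes equal between libraries, the Son range narrowed to 1.74-fold and that of Srrm2 to 2.17-fold. Without library 2 Srrm2 ranged 1.63-fold and without library 3 1.499-fold. Son stayed at 1.99-fold in both cases and was then the member of the widest range.

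The junction-binding genes and Srrm1 had narrower ranges. Rnps1 stood at 196, 289, 212 and 297 CPM, a range of 1.52-fold (1.496 to 1.538) that fell to 1.33-fold with TMM scaling. Pnn stood at 172, 221, 166 and 210 CPM (1.33-fold). Both were higher in libraries 2 and 4 than in libraries 1 and 3. Srrm1 stood at 298, 368, 302 and 371 CPM (1.247-fold). Acin1 stood at 188, 229, 199 and 218 CPM (1.22-fold), the narrowest range of the 6. For all 5 genes other than Srrm2, libraries 2 and 4 were above libraries 1 and 3, and for Srrm2 library 1 was above library 4.

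**Figure D1:**
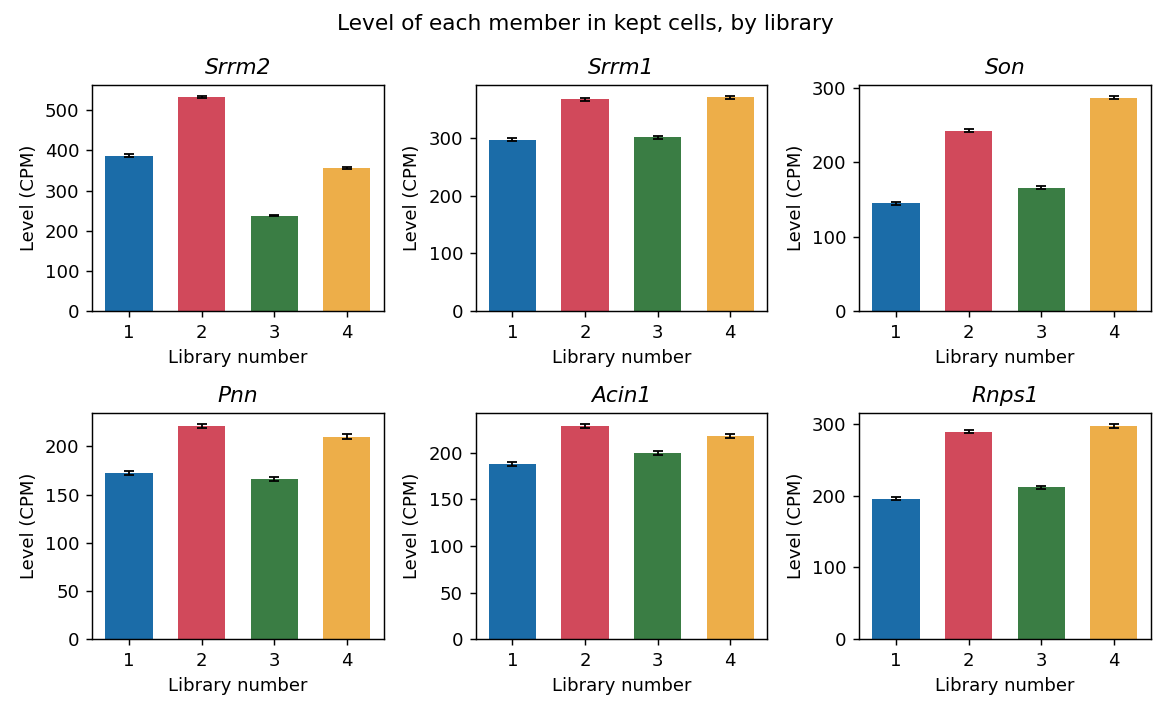
Level of each of the 6 genes (y axis, UMIs per 1000000 UMIs of kept cells, CPM) in libraries 1 to 4 (x axis); bars are levels and lines are exact 95% Poisson intervals, which cover counting error only. Srrm2 runs from 238 in library 3 to 533 in library 2, and the other 5 genes are higher in libraries 2 and 4 than in libraries 1 and 3.

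A range of 1.5-fold or more between the highest and the lowest library was met by 3 of the 6 genes, Srrm2, Son and Rnps1. Among all 14524 genes tested 51.7% met it, so the members' count was near the background. Rnps1 was under the limit with TMM scaling, without library 1 (1.404) and without library 4 (1.475), and Srrm2 without library 3 (1.499). Among the 6301 genes with at least 10000 counts, where all 6 members belong, the share was 32.1%. The range of Srrm2 was wider than that of 77.4% of all genes tested and of 92.9% of the genes with at least 10000 counts. The ranges of Son, Rnps1, Pnn, Srrm1 and Acin1 were wider than those of 71.8%, 49.6%, 31.1%, 21.4% and 17.5% of all genes tested.

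**Figure D2:**
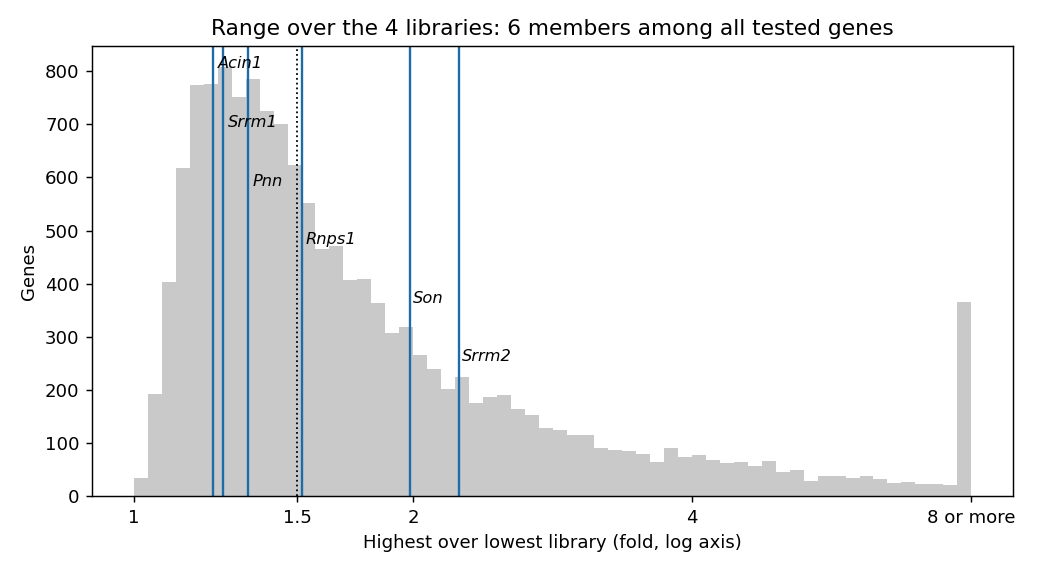
Number of genes (y axis) by their highest over lowest library CPM (x axis, log scale; the last bar holds all genes of about 8-fold or more) for the 14524 genes tested; blue lines mark the 6 genes and the dotted line 1.5-fold. Acin1, Srrm1 and Pnn lie near the peak of the distribution, and Son and Srrm2 lie in its right shoulder at 1.99-fold and 2.24-fold.

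Set against its partners, Srrm2 divided the libraries another way. The ratio of Srrm2 UMIs to the summed UMIs of the other 5 genes was 0.388 (0.384 to 0.391), 0.395 (0.392 to 0.398), 0.228 (0.225 to 0.230) and 0.257 (0.255 to 0.259) in libraries 1 to 4. This ratio does not depend on the library totals. Libraries 1 and 2 were close to each other and well above libraries 3 and 4, which the sums of the other 5 genes (998, 1349, 1045 and 1383 CPM) did not do. Of the genes tested, 483 (3.33%) had the same order of libraries as Srrm2, and none of the other 5 members was among them.

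The ranges were also present within cells of 1 state. Over naive cells alone Srrm2 ranged 2.24-fold, Son 1.90-fold, Rnps1 1.43-fold, Pnn 1.32-fold, Srrm1 1.21-fold and Acin1 1.19-fold, and 41.8% of genes ranged 1.5-fold or more. Over formative cells alone Srrm2 ranged 2.11-fold and Son 1.88-fold, with 40.5% of genes at 1.5-fold or more. Rnps1 ranged 1.33-fold over formative cells, so in both states it was under 1.5-fold.

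The paralogues of the SRRM family that act in neurons were at low levels. Srrm3 stood at 0.527, 0.884, 0.592 and 1.39 CPM and Srrm4, a regulator of neuronal microexons, at 0.462, 0.784, 0.592 and 0.850 CPM. A count of 3, taken as the floor, corresponds to 0.0150 to 0.0180 CPM.

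The list of 15 exon junction complex genes held 2 (13.3%) that ranged 1.5-fold or more, beside 51.7% of all genes tested and 32.1% of those with at least 10000 counts (4 with TMM scaling, beside 51.6%). Its median was 1.35-fold, against 1.52-fold over all genes and 1.35-fold over those with at least 10000 counts. The widest were Casc3, a core subunit, at 23.1, 31.8, 26.7 and 45.6 CPM, and Upf2, a nonsense-mediated decay factor, at 25.9, 40.4, 23.0 and 40.5 CPM. The helicase gene Ddx39b came next at 353, 255, 316 and 240 CPM, with libraries 1 and 3 above libraries 2 and 4, the reverse of Rnps1. Of 42 other RS-domain and speckle genes, 10 (23.8%) ranged 1.5-fold or more (5 with TMM scaling), beside the same shares, with a median of 1.27-fold. The widest were the kinase gene Prpf4b at 71.2, 131, 89.6 and 159 CPM (2.24-fold), Srsf9 at 109, 203, 136 and 202 CPM (1.87-fold) and Cherp at 29.9, 51.6, 35.0 and 46.9 CPM (1.73-fold). For each of these genes libraries 2 and 4 were the highest, as for Son.

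The genes whose levels over the 4 libraries were most like those of Srrm2, by Pearson correlation of log2 CPM, were Galnt6, Oas1g, Ccdc171, Luc7l2 and Dlgap1. With 4 points this is a description only. Galnt6, Oas1g, Ccdc171 and Dlgap1 stayed below 5 CPM. Luc7l2, an RS-domain partner of the U1 snRNP, stood at 174, 190, 151 and 168 CPM, a much narrower range of 1.26-fold.

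Cells were next divided into states with panels that hold none of the 6 genes. Keratin-high cells had Krt8 and Krt18 together at 500 CPM or more. The others were naive where at least 2/3 of their naive and formative panel UMIs were naive, formative where at most 1/3 were, and otherwise in between. This gave 22390 naive, 3119 in-between, 5463 formative and 1017 keratin-high cells. These are ranges of a score and not types: 788 and 1635 cells lay within 0.05 of the lower and the upper limit, and 704 had a keratin level from 250 to 1000 CPM. The median formative cell held 202 CPM of the naive panel and the median naive cell 184 CPM of the formative panel. The median keratin-high cell held 882 CPM of the pluripotent panel, against 1870 CPM in naive cells. Library 2 had 32 keratin-high cells, under the minimum of 50, so keratin-high cells were compared in libraries 1, 3 and 4.

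In formative cells Rnps1, Srrm2 and Pnn stood slightly above their level in naive cells of the same library. Rnps1 went from 193 to 253, 276 to 336, 205 to 254 and 276 to 318 CPM in libraries 1 to 4, ratios of 1.31, 1.22, 1.24 and 1.15. For Srrm2 levels went from 385 to 447, 514 to 609, 229 to 288 and 333 to 383 CPM, ratios of 1.16, 1.19, 1.26 and 1.15. Pnn had ratios of 1.19, 1.15, 1.26 and 1.16.

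The median gene was itself 1.14, 1.10, 1.14 and 1.09 times its naive CPM in formative cells, so a part of each ratio was common to many genes. Relative to the median gene of each library, Rnps1 stood at 1.15, 1.11, 1.08 and 1.06, Srrm2 at 1.02, 1.08, 1.10 and 1.06, and Pnn at 1.04, 1.05, 1.10 and 1.06. With TMM scaling the ratio of Srrm2 was 0.97, 1.03, 1.06 and 1.02 and that of Pnn 0.989, 0.998, 1.06 and 1.02, so that Srrm2 turned in library 1 and Pnn in libraries 1 and 2. Rnps1 stayed above its naive level in all 4. Son had ratios of 1.11, 1.15, 1.13 and 1.10, close to the median gene in every library.

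Acin1 stood below the median gene in every library, and Srrm1 below it in libraries 1 and 3. Acin1 had formative over naive ratios of 0.93, 1.08, 0.99 and 1.06, which were 0.82, 0.98, 0.87 and 0.97 relative to the median gene. Srrm1 had ratios of 0.97, 1.11, 1.03 and 1.09, or 0.86, 1.01, 0.90 and 1.00 relative to the median gene. Both had their lowest ratios in these 2 libraries.

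A gene was called when it was 25% or more higher, or 20% or more lower, in every library used. None of the 6 genes was called between formative and naive cells, where 22.5% of 11335 genes were called higher and 9.15% lower, nor was any with TMM scaling, where the shares were 14.3% and 16.8%. A limit of 1.1-fold in either direction, here called the 10% limit, was added after seeing the data. Its lower side, 1/1.1 of the level, lay at slightly less than 10% lower. By this limit Srrm2, Son, Pnn and Rnps1 were higher, 4 of 6 beside a background of 36.1%. None was lower, beside 15.2%, and with TMM scaling none was higher. None differed from the median gene by the 10% limit in every library, beside 24.5% of genes higher and 24.3% lower. Above the median gene in every library were 3 of 6 (Srrm2, Pnn and Rnps1; background 34.9%), and below it was 1 (Acin1; background 35%), although the counting intervals of Srrm2 and Pnn in library 1 and of Acin1 in library 2 held the median gene. Among the 15 exon junction complex genes 1 was called higher, Casc3, with ratios of 1.61, 1.44, 1.28 and 1.33, and none lower. With TMM scaling Casc3, at 1.34, 1.253, 1.08 and 1.17, was no longer called, nor was any of the 15 genes. Among the 42 other speckle genes 1 was called higher, Prpf4b, with ratios of 1.47, 1.52, 1.46 and 1.41, and none lower. With TMM scaling Prpf4b, at 1.22, 1.31, 1.23 and 1.246, was not called, and 4 of the 42 were called lower (Tra2a, Rbm25, U2surp and Clk1), beside the 16.8% of genes.

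In keratin-high cells Srrm1, Acin1 and Pnn stood below their naive level, while Srrm2, Son and Rnps1 stood at 0.97 to 1.10 times it. Acin1 went from 189 to 160, 206 to 151 and 212 to 194 CPM in libraries 1, 3 and 4, ratios of 0.85, 0.74 and 0.92. Srrm1 went from 298 to 251, 307 to 244 and 356 to 323 CPM, ratios of 0.84, 0.79 and 0.91. Pnn had ratios of 0.89, 0.88 and 0.91, with an interval in library 1 (0.794 to 1.00) that reached 1. For all 3 genes each library showed the lower level, and library 3, with 659 keratin-high cells, showed the lowest ratio. With a keratin limit of 200 CPM the median of libraries was 0.933 for Acin1, 0.928 for Srrm1 and 0.986 for Pnn. Thinned to 5000 UMIs per cell it was 0.701, 0.775 and 0.934, and without cells over 2 times the median UMI count 0.782, 0.816 and 0.911, in the same order.

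Srrm2 had ratios of 1.03, 1.01 and 0.97, Rnps1 of 1.10, 0.97 and 1.00, and Son of 1.04, 1.10 and 1.09. The median gene had ratios of 1.12, 1.09 and 1.09, so that 5 of the 6 members, all but Son, were below it in every library, beside 38.4% of genes, and none was above it, beside 38.6%, although the counting interval of Rnps1 in library 1 held the median gene. With TMM scaling Srrm2 stood at 0.859, 0.918 and 0.838, Rnps1 at 0.910, 0.878 and 0.867, and Son at 0.863, 1.00 and 0.945 of the naive level. No member was called, beside 29.4% of 8541 genes called higher and 12.4% lower. With TMM scaling Srrm1 and Acin1 were called lower, 2 of 6, beside 22.5% of genes, and none higher, beside 21.3%. At the 10% limit (1.1-fold) Srrm1 alone was lower, beside 21.3% of genes, and none was higher, beside 38.1%. In library 4 Srrm1, at 0.907, only just met this limit and was less than 10% lower. With TMM scaling 3 members (Srrm1, Acin1 and Pnn) were lower at that limit and none was higher. No share of all genes was taken at that limit with TMM scaling, so this count is not a result about the members. Below the median gene by that limit in every library were 3 of 6 (Srrm1, Pnn and Acin1), beside 29.2% of genes, and none was above it, beside 31.7%.

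Other speckle genes stood lower in keratin-high cells by larger ratios. Of the 42, 7 were called lower, beside 12.4% of all genes, and none higher, beside 29.4%. By the 10% limit 19 stood below the median gene, beside 29.2%. U2surp, a protein associated with the U2 snRNP, had ratios of 0.59, 0.62 and 0.63. Tra2a, an SR-like activator of exon inclusion, had ratios of 0.54, 0.60 and 0.67, and Rbm25, another splicing regulator, had ratios of 0.59, 0.70 and 0.67. None of the 15 exon junction complex genes was called in either direction, and by the 10% limit 7 stood below the median gene, beside the same 29.2%, and none above it, beside 31.7%. With TMM scaling 5 of the 15 (Rbm8a, Pym1, Upf2, Upf3b and Nxf1) and 16 of the 42 were called lower, beside 22.5% of genes, and none higher, beside 21.3%. Before that scaling, the median of the 42 genes was 0.89, 0.89 and 0.94.

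Cell cycle genes, RNA quality and markers of other cell types moved with these states. The S-phase panel summed to 1169 to 1475 CPM in keratin-high cells of libraries 1, 3 and 4 and to 1835 to 1902 CPM in their naive cells, and the median mitochondrial share was 2.94% to 3.78% against 3.77% to 5.46%. In the same 3 libraries the fibroblast markers summed to 27.8 to 58.4 CPM in keratin-high cells and 1.47 to 2.78 CPM in naive cells, with 3 of 5 genes higher in every library and Lum at 0. Primitive endoderm markers summed to 7.35 to 22.0 CPM against 1.03 to 1.57 CPM (3 of 5 higher, none at 0 in all 3 libraries). For trophectoderm markers the sums were 22.0 to 34.4 CPM against 6.13 to 9.83 CPM (2 of 5 higher, Elf5 at 0). These tallies rest partly on counts under the floor of 3 in the 61 keratin-high cells of library 1. Gata6, Sox7 and Hand1 held 1 UMI each there, Dcn held 2, and Gata4, Sox17 and Cdx2 held 0. In formative cells of the 4 libraries the S-phase panel summed to 1850 to 2128 CPM against 1835 to 1979 CPM in naive cells, higher in each library, and the median mitochondrial share was 3.35% to 3.79% against 3.77% to 5.46%. Fibroblast markers summed there to 6.27 to 15.5 CPM against 1.47 to 3.69 CPM (2 of 5 higher in every library), and primitive endoderm markers to 2.09 to 8.04 CPM against 0.786 to 1.57 CPM (1 of 5 higher). Trophectoderm markers summed to 2.35 to 4.44 CPM against 6.13 to 9.83 CPM (none of 5 higher and 1, Tead4, lower). No gene of the 3 lists was at 0 over all libraries. Tead4 held most trophectoderm UMIs of naive cells (1512, 995, 942 and 314 in libraries 1 to 4). As CPM, Cdx2 was higher in formative cells of libraries 2, 3 and 4, and Gata3 in libraries 1, 3 and 4. Thy1 held most fibroblast UMIs of formative cells in libraries 1, 2 and 4 (27, 281 and 568). These sums thus rest largely on single genes. The part of these differences in the members' levels was not tested. Among cells low in both the S and the G2/M panel, the keratin-high over naive ratio was 0.71 in library 3 and 0.95 in library 4 for Acin1, 0.77 and 0.86 for Srrm1, and 0.92 and 0.95 for Pnn. Among the same cells formative over naive ratios in libraries 2, 3 and 4 were 1.21, 1.10 and 1.17 for Srrm2, 1.23, 1.02 and 1.17 for Rnps1 and 1.06, 1.09 and 1.14 for Pnn. The median gene there was at 1.08, 1.14 and 1.08, so that in library 3 none of the 3 genes was above it, nor was Pnn in library 2.

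**Figure D3:**
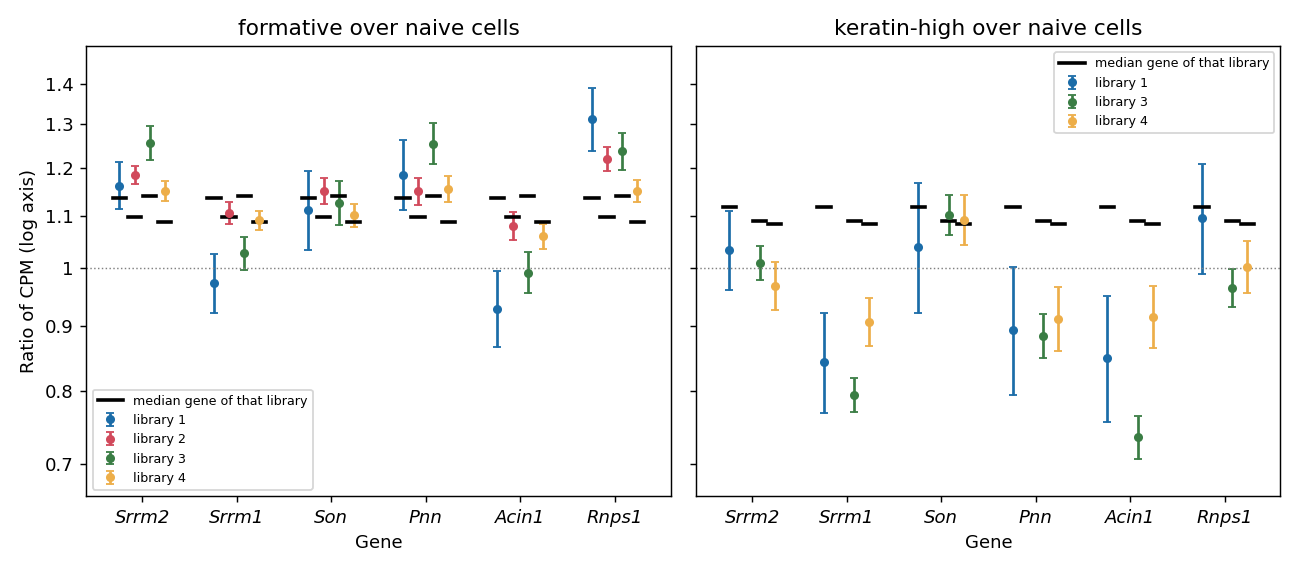
Ratio of CPM in formative cells (left) and keratin-high cells (right) to naive cells of the same library (y axis, log scale) for each gene (x axis); coloured points are libraries with exact 95% intervals for counting error, and black bars mark the median gene of that library. In formative cells Rnps1 lies above the black bars in every library and Acin1 below them, and in keratin-high cells Srrm1, Pnn and Acin1 lie below both the bars and 1.

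The cell cycle set Pnn apart from the other members. S-high cells were those at or above the 75th percentile of their library for the share of S-phase panel UMIs and below it for the G2/M panel, and cells below the median for both were the reference. Pnn went from 164 to 217, from 193 to 275, from 148 to 204 and from 182 to 264 CPM in libraries 1 to 4. The S-high ratios were 1.32 (1.27 to 1.38), 1.42 (1.38 to 1.46), 1.38 (1.33 to 1.43) and 1.45 (1.41 to 1.51). Every interval lay above the 25% limit.

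Pnn was the only member called higher in S-high cells, beside 1.46% of 11151 genes, and its lowest ratio exceeded the lowest ratio of 99.3% of them. None of the 15 exon junction complex genes and none of the 42 other speckle genes was called, beside 1.46% of genes higher and 0.879% lower. The other 5 members had S-high ratios from 0.96 (Son in library 3) to 1.19 (Acin1 in library 3), and the median gene had ratios of 1.02 to 1.05. Within naive cells alone the Pnn ratios were 1.32, 1.40, 1.29 and 1.42, and those of the other members were 1.00 to 1.16. Median UMI counts of S-high and reference cells were close, at 16482.5 to 19519 and 16470 to 19782, and so were their mitochondrial shares.

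Son had S-high ratios of 1.04, 1.10, 0.96 and 1.07. Any link between the promoter letters and the cycle ratios was not tested. In G2/M-high cells no member was called, beside 3.02% of 11259 genes called higher and 1.55% lower. Pnn stood there at 0.92, 1.06, 1.04 and 1.10 times the reference, without a shared direction. Srrm2 stood at 1.04, 1.13, 1.11 and 1.16, above the median gene (1.01 to 1.04) in every library. In library 1 its counting interval (1.01 to 1.07) held the median gene (1.03). G2/M-high cells had higher median UMI counts, 22199.5 to 26360, than the reference cells, 16470 to 19782. The part of depth in the G2/M-high ratios was not tested.

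**Figure D4:**
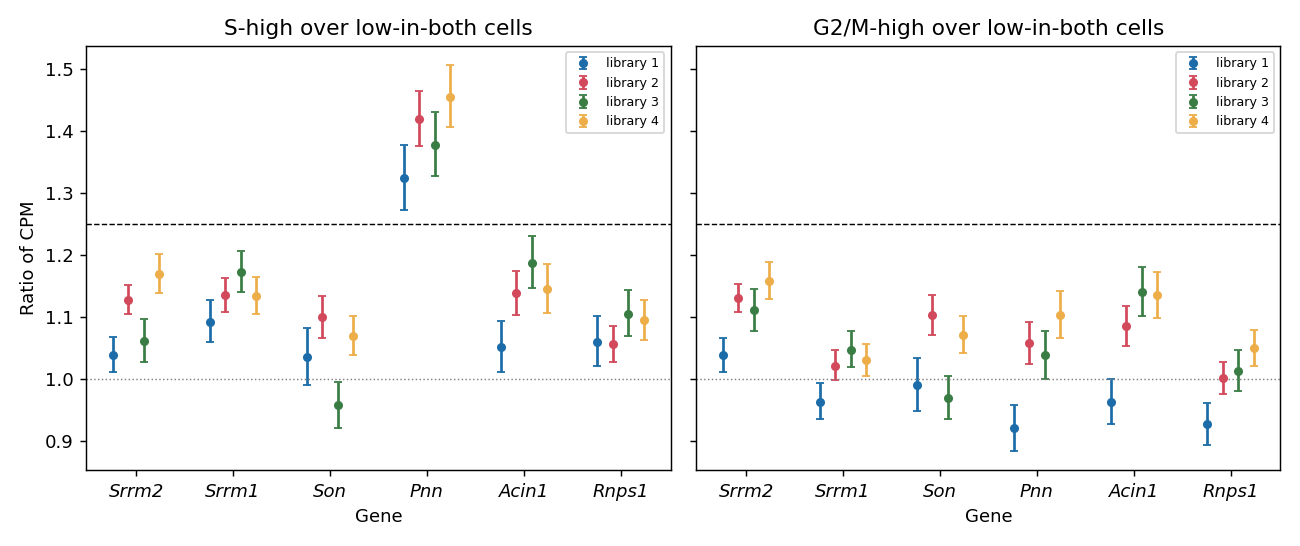
Ratio of CPM in S-high cells (left) and G2/M-high cells (right) to cells low in both panels of the same library (y axis) for each gene (x axis); points are libraries with exact 95% intervals for counting error, and the dashed line marks 25% higher. Pnn in S-high cells, at 1.32 to 1.45, is the only member above the dashed line.

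Correlations between the 6 transcripts from cell to cell were weak. After each cell was thinned to 5000 UMIs, the 15 pairs had Pearson correlations of -0.006 to 0.070 over the cells of a library, with a median of 0.031, and 59 of the 60 values were above 0, beside 60.2% of the members' values with 4673 other genes. The most that any pair shared was 0.489% of its variance (Srrm2 and Pnn, library 2). Cells of a library share their capture and sequencing, and at about 0.7 to 2.7 UMIs per thinned cell counting noise limits any correlation, so a low value does not show that the transcripts vary independently. Thinned to 10000 UMIs the median was 0.053 and the lowest 0.010, and on log scaled, unthinned counts the median was 0.099 and the highest 0.173. Unthinned cells differ in depth, and the part of depth in those values was not tested. No correlations with other genes were taken at these settings. The 5 correlations with Srrm2 exceeded those of 84% to 99.3% of all genes compared with it. The genes compared needed only 0.1 UMI per thinned cell, so neither these shares nor the 60.2% are matched for level. The other 10 pairs ranged from 24.1% to 99.7%, and 3 of their 40 values, all with Rnps1 (Pnn and Acin1 in library 2, Son in library 4), were below the median gene of the partner named. Srrm1 and Pnn had 0.048 to 0.058, Srrm2 and Son 0.038 to 0.049, and Rnps1, the shared partner in both ASAP and PSAP, had 0.003 to 0.023 with Acin1 and -0.006 to 0.033 with Pnn. Among 4678 genes the highest correlations with Srrm2, by the lowest of the 4 libraries, were those of Prrc2c (0.073 to 0.089), L1td1 (0.068 to 0.114), Malat1 (0.060 to 0.136), Akap12 (0.059 to 0.091) and Hnrnpa2b1 (0.057 to 0.088). Malat1 is a long noncoding RNA that collects in nuclear speckles. Son ranked 31st by the same measure and Pnn 194th.

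The spread over cells differed between members. For Pnn the variance of thinned counts was 1.11 to 1.13 times the mean, against a median gene at 1.03 to 1.04, and its excess squared coefficient of variation, 0.12 to 0.15, was the highest of the 6 genes in every library. Srrm2 had a variance of 1.08 to 1.12 times its mean. Thinned to 5000 UMIs, 16.2%, 8.01%, 32.2% and 18.2% of cells in libraries 1 to 4 had no Srrm2 UMI, where a Poisson distribution of the same mean gives 14.3%, 6.84%, 30.5% and 17.1%. The share of cells without an Srrm2 UMI was slightly above the Poisson share in every library, as it was for every other member. The excess squared coefficient of variation of Srrm2, 0.046 to 0.082, was below that of the median gene, 0.076 to 0.104, in every library. Rnps1, at 1.00 to 1.06, had the lowest value of the 6 in libraries 1, 3 and 4, and Srrm1, at 1.01, in library 2.

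Barcodes that the filter left out held Son at a higher level than kept cells, by larger ratios with more than 10% mitochondrial UMIs than with up to 10%. In library 2 the ratios were close, at 1.63 and 1.62, and the counting intervals of the levels (384 to 409 and 361 to 425 CPM) overlapped. Those over 10% numbered 1028, 2441, 1191 and 1870 in libraries 1 to 4. Their median UMI counts were 2601.5 to 3636 and their median mitochondrial shares 18.1% to 29.4%. As CPM of all UMIs, Son stood at 1.79, 1.63, 1.67 and 1.70 times its level in kept cells. It was the 1 member called higher, beside 22.7% of 8288 genes, and none was called lower, beside 16.3%. Srrm2 stood at 1.02, 1.48, 1.15 and 1.36 and Pnn at 1.21, 1.32, 1.29 and 1.251, and the median gene at 1.03 to 1.07. Since mitochondrial UMIs take up part of that total, levels were also taken, after seeing the data, as a share of the other UMIs. Per 1000000 non-mitochondrial UMIs, Son went from 153 in kept cells to 342 in these barcodes of library 1, and from 253 to 487, 173 to 352 and 297 to 597 in the others in order. The ratios for Son were 2.24, 1.93, 2.03 and 2.01. Pnn had ratios of 1.52, 1.56, 1.57 and 1.48, and Srrm2 of 1.28, 1.74, 1.40 and 1.60, of which that in library 1 was just under the median gene (1.283 against 1.286). Malat1, which stays in the nucleus, had ratios of 3.44 to 4.26.

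On this scale Srrm1 had ratios of 0.95 to 1.03, Acin1 of 0.99 to 1.04 and Rnps1 of 0.90 to 1.04, all below the median gene, which was at 1.22 to 1.29. Son, Pnn and Srrm2 were called higher, 3 of 6, beside 38.6% of 8275 genes, and none was called lower, beside 6.05%; the limit of 25% lay close to the median gene. On non-mitochondrial UMIs the ratio of Son exceeded that of 82.1% to 92.2% of genes. Left-out barcodes with up to 10% mitochondrial UMIs had median shares of 2.10% to 4.30% and median UMI counts of 1235 to 3516. As CPM of all UMIs, Son stood there at 1.29, 1.62, 1.19 and 1.52 times kept cells in libraries 1 to 4. Srrm2 stood there at 1.02, 1.35, 0.96 and 1.02 and Pnn at 1.01, 1.34, 1.06 and 1.15. Within kept cells, in 3 equal classes of UMI count, the 6 genes stood at 0.92 to 1.07 times their level over all kept cells. Srrm2 stood at 0.92 to 0.97 in the lowest class and 1.02 to 1.03 in the highest, higher in every library, as was Acin1. Pnn stood at 1.02 to 1.05 and 0.93 to 0.96, lower in every library. Median UMI counts were 23621 to 26919 in keratin-high cells of libraries 1, 3 and 4 and 18172.5 to 21018.5 in their naive cells. The part of depth in the differences between states was not tested. The part of mitochondrial share in the differences between libraries was not tested.

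**Figure D5:**
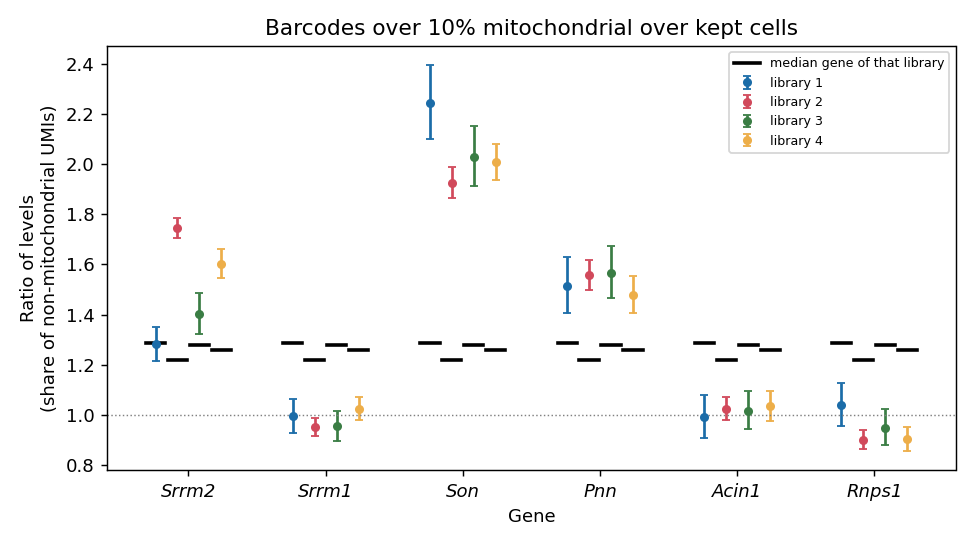
Ratio of each gene's level per 1000000 non-mitochondrial UMIs in barcodes over 10% mitochondrial to that in kept cells of the same library (y axis) for each gene (x axis); points are libraries with exact 95% intervals for counting error, and black bars mark the median gene. Son lies at 1.93 to 2.24 and Pnn at 1.48 to 1.57, above the bars, and Srrm1, Acin1 and Rnps1 lie below them.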

How the data were processed

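The deposited matrix holds raw UMI counts per gene and barcode. Per the labels and the study's methods, the authors mapped 10x 3′ libraries to mm10 with Cell Ranger 6.1.2 and aggregated them at default settings, which subsamples reads to equalise depth. The study's filter was applied per library: UMIs and detected genes at or above the mean minus 1 SD, and at most 10% mitochondrial UMIs. It did not leave exactly the number of cells or the median number of genes that the study states. No doublet caller was run; leaving out cells over 2 times the library's median UMI count (1615 cells) was an alternative. Levels are CPM of summed counts with exact Poisson 95% intervals, and ratios have exact conditional intervals. These cover counting error only. Genes needed 200 counts, over all libraries or in both classes compared. edgeR 4.0.16 gave TMM factors only, with no test. The call and correlation steps were tested on simulated data. Named were the 6 members, Srrm3 and Srrm4, the 3 widest library ranges and up to 3 calls per direction from the 2 lists (ranked by their ratio nearest to 1, the furthest from 1 first), and the 5 genes most like Srrm2 over cells and over libraries; Malat1 in barcodes left out and list genes called only with TMM scaling were added after their values were seen. Members and lists were chosen with earlier results of these data known. Promoter windows are RefSeq's on GRCm38.p6.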

Additional observations from a re-analysis of the deposited data

How the results depend on the processing

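No paired analysis was possible because no library number is tied to a labelled sample. For the same reason the planned edgeR test of Srrm2 hKO against WT was not run. The Srrm2 library range of 2.24-fold became 2.17 with TMM factors and 2.29 with all barcodes, and 1.499 to 2.24 leaving out 1 library; without library 3 it was 1.499 and without library 2 it was 1.63. Genes of 1.5-fold or more numbered 12651 with no count minimum and 2020 with a minimum of 10000 (added after seeing the data), against 7509, and 5433 to 6246 without 1 library. Members of 1.5-fold or more numbered 2 to 3; Rnps1 fell short without library 1 (1.404) or 4 (1.475). Formative against naive, genes called higher and lower numbered 2555 and 1037. They numbered 1496 and 557 thinned to 5000 UMIs, and 1626 and 1901 with TMM factors. They numbered 4088 and 1723 at the 10% limit, where 4 members were called, and 1274 and 431 in cells low in both cycle panels. Both of the last settings were added later. For keratin-high cells, 2507 and 1063 became 964 and 348 when thinned and 4145 and 1996 with no count minimum. With TMM factors 1922 were lower, and 2 members were called. At the 10% limit 1815 were lower, and 1 member was called. The list calls in formative cells, Casc3 and Prpf4b, were lost with TMM factors, and those in keratin-high cells went from 0 to 5 of 15 and from 7 to 16 of 42. Without 1 library, all genes called higher and lower in keratin-high cells numbered 1588 to 2694 and 648 to 1242, lowest without library 3. Medians over libraries that turned direction with TMM factors were those of Srrm1 (0.912), Son (0.961) and Acin1 (0.884) in formative cells and Son (0.945), Srrm2 (0.859) and Rnps1 (0.878) in keratin-high cells; the last 2 and Acin1 in formative cells lay near 1 and also crossed it under other alternatives. In G2/M-high cells Srrm1 turned to 0.97 within naive cells and 0.99 relative to the median gene, Pnn to 0.999 within naive cells, Rnps1 to 0.969 and 0.980, and Son to 0.997 relative to the median gene and 0.990 without library 2 or 4. The median correlation of 0.031 became 0.053 at 10000 UMIs and 0.099 on log scaled, unthinned counts, and the highest, 0.070, became 0.093 at 10000 UMIs and 0.173 on the log scale. The median ratio of Son in high-mitochondrial barcodes was 1.68 on all UMIs and 2.02 on non-mitochondrial UMIs, where Acin1 turned to 1.02; on all UMIs Srrm2 and Pnn were not called. The S-high ratio of Pnn, 1.398 as a median of libraries, stayed at 1.35 to 1.42 under the alternatives run. Except for scaling, thinning, the count minimum and the fold, whose own construction sets these counts, the cause was not tested.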
